A study of Mus musculus with 2 samples.

Results

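The genes described here are 9 imprinted genes that control growth and lie outside the imprinted Dlk1-Dio3 locus: H19, Igf2, Cdkn1c, Peg3, Plagl1, Igf2r, Grb10, Gnas and Dcn. A probe set, a set of short oligonucleotides designed against the same transcript, was assigned to a gene through its symbol in the platform annotation. The probe set of H19 is annotated with both H19 and the microRNA gene Mir675, and it was assigned to H19 because the supplementary list of the study names it so. In all, 24 probe sets were used for the members, that of H19 and those annotated with a member alone. Of these, 11, covering all 9 genes, exceeded a signal of 250 on the brighter array and so gave a gene value. By the same requirement 3781 genes were measured on the array.

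RNA of skeletal muscle was taken from female mice at 4 months of age. C57BL6 is the only mouse strain that the methods of the study name. RXRγ mice carried a transgene for the nuclear receptor RXRγ under the human α-actin promoter, which is active in muscle fibres, and belonged to the line 4-3, so that effects of the transgene and of its site of insertion cannot be told apart. Control mice were non-transgenic. The RNA was pooled within each genotype (5 animals per pool in the methods, 3 in the sample labels), and each pool was hybridized to 1 Affymetrix array, without replicates. The error of the values therefore could not be estimated, genotypes could not be compared by a test, and precision is limited by having 1 array per genotype. The signals were on a linear scale in array units and had been scaled to the same trimmed mean, 100.0 on both arrays. Rxrg, the gene of the transgene, gave a signal of 334.5 for control and 9172 for RXRγ mice. All 8 muscle fibre markers listed, among them Acta1 and Ckm, were measured.

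Imprinted genes are expressed mainly from the allele inherited from 1 parent. As a rule, genes expressed from the paternal allele promote fetal growth and those expressed from the maternal allele restrain it. H19, Cdkn1c, Igf2r and Grb10 are known as maternally expressed in most tissues in which they are imprinted, and Igf2, Peg3 and Plagl1 as paternally expressed. Gnas makes several transcripts that differ in their parental origin, and Dcn is imprinted in the placenta. Many of these genes are abundant in fetal muscle and decline after birth, while H19 remains abundant in adult muscle. The arrays do not tell the parental alleles apart, so every value below is a sum over both.

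The members H19 and Igf2 also host microRNAs, which are shown because a probe set for the host transcript does not measure them. H19 is a long non-coding RNA that contains the hairpin of miR-675, and the span of Igf2 contains that of miR-483. The mature sequences from RefSeq (GRCm38.p6, chromosome 7, minus strand) are given 5′ to 3′ with the seed, bases 2 to 8, in capitals. The seeds of these microRNAs differ from each other, and none of the microRNAs was measured here as a mature product.
miR-675-5p: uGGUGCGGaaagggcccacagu
miR-675-3p: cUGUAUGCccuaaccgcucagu
miR-483-5p: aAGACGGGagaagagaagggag
miR-483-3p: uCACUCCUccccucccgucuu

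The array of RXRγ mice showed higher signals for 5 of the 9 genes, namely H19, Igf2, Cdkn1c, Peg3 and Plagl1, and none was lower. Their log2 ratios of RXRγ over control mice lay between 1.03 and 1.94. Igf2r, Grb10, Gnas and Dcn stayed between -0.14 and 0.15. The terms higher and lower stand for a mean log2 ratio of 0.4 or more in that direction. Of the 3781 genes measured, 16.8% were higher by this rule and 20.1% were lower. At a threshold of 1 on the log2 scale the same 5 members were higher, against 5.08% of all genes. The median log2 ratio was 1.03 over the 9 members and -0.04 over all genes measured. The members were proposed with the results of these arrays in view, so the count describes them and is no evidence that imprinted genes as a group were raised. In a tissue sample, fewer cells of a type and less RNA per cell cannot be told apart.

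**Figure D1:**
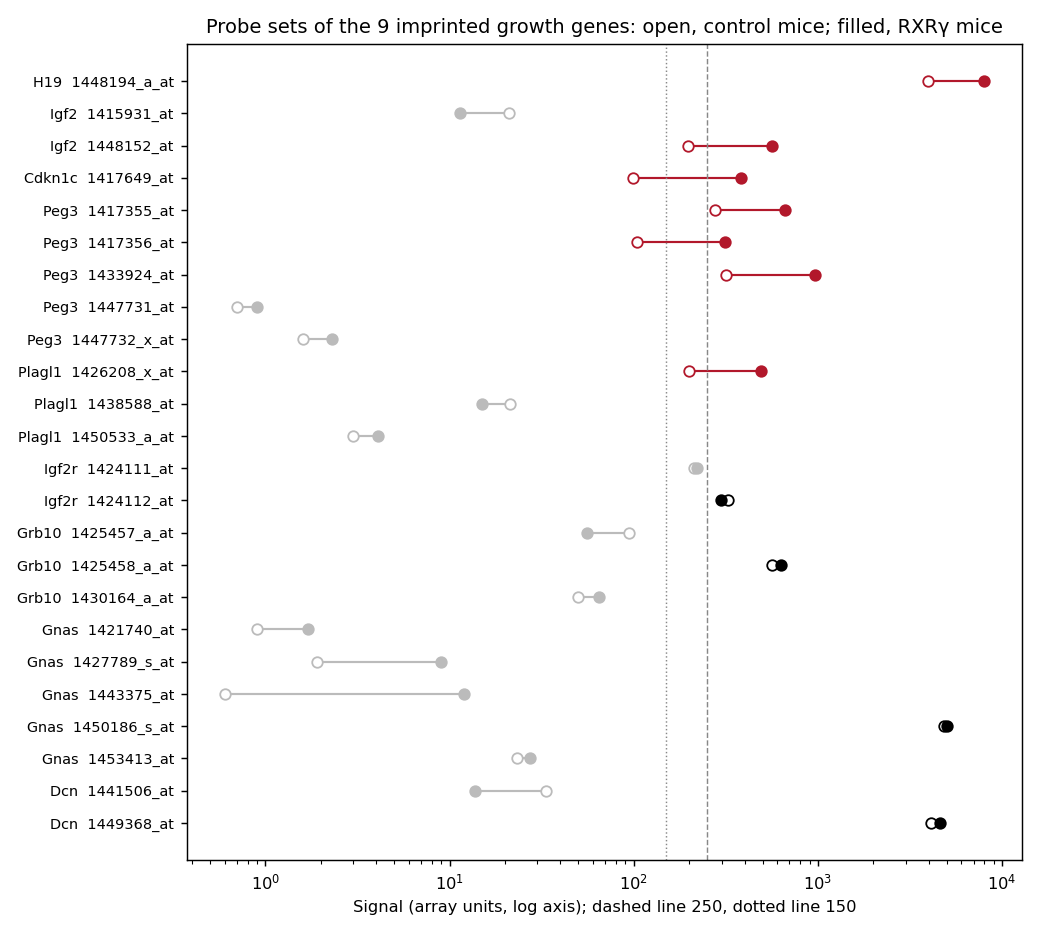
Signal of each of the 24 probe sets of the 9 genes (array units, log axis), with 1 array for control mice (open circles) and 1 for RXRγ mice (filled). Red marks probe sets above 250 on the brighter array (dashed line) with a log2 ratio of at least 0.4, black those above 250 that stayed within it, and grey those at or under 250 on both arrays; the filled circles of H19, Igf2 1448152_at, Cdkn1c, Plagl1 1426208_x_at and the 3 bright probe sets of Peg3 lie to the right of the open ones.

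The growth factor and the non-coding RNA of the Igf2-H19 domain were both higher. Igf2 encodes insulin-like growth factor 2, a fetal growth factor that also acts in an autocrine manner during the differentiation of myoblasts. The probe set 1448152_at gave a signal of 196.1 for control and 559.9 for RXRγ mice, a 2.86-fold difference (log2 ratio 1.51). The second probe set of Igf2, 1415931_at, had 20.9 and 11.4, too low for a fold to be given. The rise of Igf2 therefore rests on 1 probe set. H19 shares enhancers with Igf2, and its transcript is abundant in muscle. Its probe set gave a signal of 3936 for control and 8015 for RXRγ mice (2.04-fold, log2 ratio 1.03), both far above 250. The annotation also names Mir675 for this probe set, which was read here as the host transcript and not as the mature microRNA.

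Cdkn1c, which encodes the cyclin-dependent kinase inhibitor p57 and promotes exit from the cell cycle, was higher from a control signal too dim for more than a bound. Its only probe set gave a signal of 99.6 for control and 383.3 for RXRγ mice (log2 ratio 1.94). Signals under 150 were treated as a bound of 150 in folds, and Cdkn1c was therefore at least 2.56-fold higher in RXRγ mice. With the signal of control mice set to 150 its log2 ratio was 1.35, under that of Igf2 and near those of Peg3 and Plagl1, so that no order among these genes is given.

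The paternally expressed zinc finger genes Peg3 and Plagl1 were higher as well. Peg3 encodes a DNA-binding protein linked to maternal behaviour, growth and stem cell states, and is the member with most bright probe sets. Its probe set 1433924_at gave a signal of 314.9 for control and 964.2 for RXRγ mice, 1417355_at had 276.9 and 659.2, and 1417356_at had 104.2 and 314.3. The 3 probe sets moved the same way, with log2 ratios of 1.61, 1.25 and 1.59 and a mean of 1.49. Their span of 0.36 can be set beside a median span of 0.20, and a 90th percentile of 0.54, over the 1213 genes with more than 1 bright probe set. Another pair of probe sets, 1447731_at and 1447732_x_at, had signals of at most 2.3 on both arrays. With every signal under 150 set to 150, the mean of Peg3 was 1.31.

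Plagl1 encodes the zinc finger transcription factor also called Zac1, which is known to regulate other imprinted genes, H19, Igf2 and Cdkn1c among them. Its probe set 1426208_x_at gave a signal of 199.9 for control and 491.2 for RXRγ mice (2.46-fold, log2 ratio 1.30). Names that end in _x_at mark probe sets whose oligonucleotides may also match other transcripts. Without such probe sets Plagl1 had no gene value. Its other probe sets, 1438588_at (21.2 for control and 15 for RXRγ mice) and 1450533_a_at (3.0 and 4.1), were far under 150.

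The receptor that clears IGF2 did not move with its ligand. Igf2r encodes the cation-independent mannose 6-phosphate receptor, which takes IGF2 and lysosomal enzymes to the lysosome. Its probe set 1424112_at gave a signal of 326.4 for control and 297.0 for RXRγ mice (log2 ratio -0.14). A further probe set, 1424111_at, had 212.8 and 219.7, so that neither reached 0.4 in either direction. The probe set 1440979_at, annotated with both Igf2r and its antisense transcript Airn, had 22.3 and 23.2.

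Grb10, an adaptor protein that binds the receptors of insulin and IGF1 and restrains their signal, gave a signal of 564.4 for control and 626.4 for RXRγ mice at 1425458_a_at (log2 ratio 0.15). Its other probe sets were under 150 on both arrays, with 94.8 and 55.4 at 1425457_a_at and 50.1 and 64.4 at 1430164_a_at. Gnas encodes the α subunit of the stimulatory G protein, which couples receptors to cAMP. Its probe set 1450186_s_at had 4834 for control and 4999 for RXRγ mice (log2 ratio 0.05). A name ending in _s_at marks oligonucleotides shared by several transcripts. The other 4 probe sets of Gnas had signals of at most 27.2. A scarce transcript and a poorly responding probe set cannot be told apart there. Dcn encodes decorin, a small proteoglycan that coats collagen fibrils and binds growth factors. Its probe set 1449368_at had 4126 for control and 4575 for RXRγ mice (log2 ratio 0.15), and 1441506_at had 33.5 and 13.8.

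The filter on signal bears on these counts. Igf2, Cdkn1c and Plagl1 had a signal at or under 250 in control mice and entered only through the array of RXRγ mice. Of the 392 genes measured that had such a signal in control mice, 71.2% were higher in RXRγ mice, so that the direction of these 3 is in part set by the filter. Of the 3389 genes above 250 in control mice, 10.6% were higher, and H19 belonged to them. The mean signal of Peg3 in control mice, 232.0, puts it among the 392, although 2 of its bright probe sets were above 250 on both arrays. With a filter that treats the arrays alike, a mean signal above 250, Cdkn1c and 1 probe set of Peg3 fell out, 4 of 8 members were higher and 15.5% of all genes were. When both arrays had to exceed 250, H19 and Peg3 were the higher members left among 6, against 12.2% of all genes. Neither filter could change the log2 ratio of H19, since its only probe set was above 250 on both arrays.

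**Figure D2:**
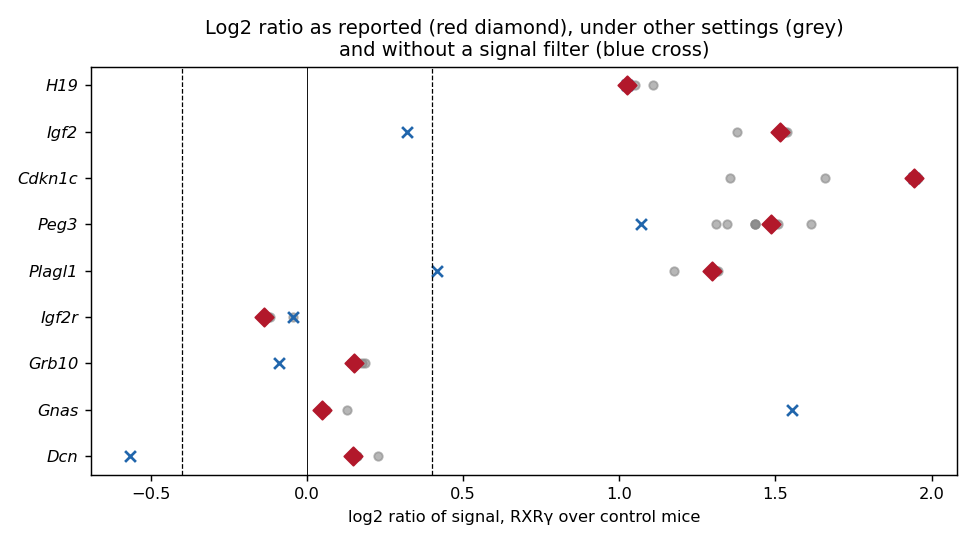
Log2 ratios (RXRγ over control mice) of the 9 genes, 1 row per gene. Red diamonds are the values as reported, grey points those under the other settings for scaling, pseudocount, floor, filter and gene summary, and blue crosses those with no filter on signal, where probe sets near 0 count as much as bright ones; dashed lines mark 0.4 in either direction, and with the exception of the crosses the 5 genes at the top stay to the right of it and the other 4 inside it.

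The direction of the 5 higher genes held under median scaling, quantile normalization and intensity-dependent centring, where their log2 ratios lay between 1.03 and 1.96. The values of Igf2r, Grb10, Gnas and Dcn under these scalings lay between -0.14 and 0.23. Without a filter on signal, Igf2 and Plagl1 had probe sets beyond 0.4 in both directions, Gnas was counted as higher (log2 ratio 1.55) and Dcn as lower (-0.57), in each case through probe sets with signals under 34.

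H19, Igf2 and Cdkn1c lie on chromosome 7 in neighbouring imprinted domains, and Peg3 lies elsewhere on that chromosome. For each member, the 10 nearest protein-coding genes on each side were taken from the RefSeq annotation, which gave 148 genes besides the members, of which 37 were measured. RXRγ mice had higher values for 5 of the 37 and lower values for 4, and the median of their log2 ratios was 0.01. Of all genes measured, 16.8% were higher and 20.1% were lower. Near H19, Lsp1, which encodes an actin-binding protein of leukocytes, gave a signal of 132.0 for control and 3220.5 for RXRγ mice and was at least 21.5-fold higher. The genes between Lsp1 and H19 did not follow. Tnnt3, the fast troponin T, had a log2 ratio of -0.24, and Mrpl23, a mitochondrial ribosomal protein gene, was lower (691.7 against 1121.3, log2 ratio -0.70). Between Igf2 and Cdkn1c, only Cd81 of the protein-coding genes was measured, and it had a log2 ratio of 0.12. Nap1l4, beyond Cdkn1c, had 957.7 against 959.1. The imprinted genes Phlda2 and Slc22a18, which lie between Cdkn1c and Nap1l4, stayed under a signal of 24 on both arrays, and the antisense RNA Kcnq1ot1 had 147.0 for control and 194.7 for RXRγ mice.

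**Figure D3:**
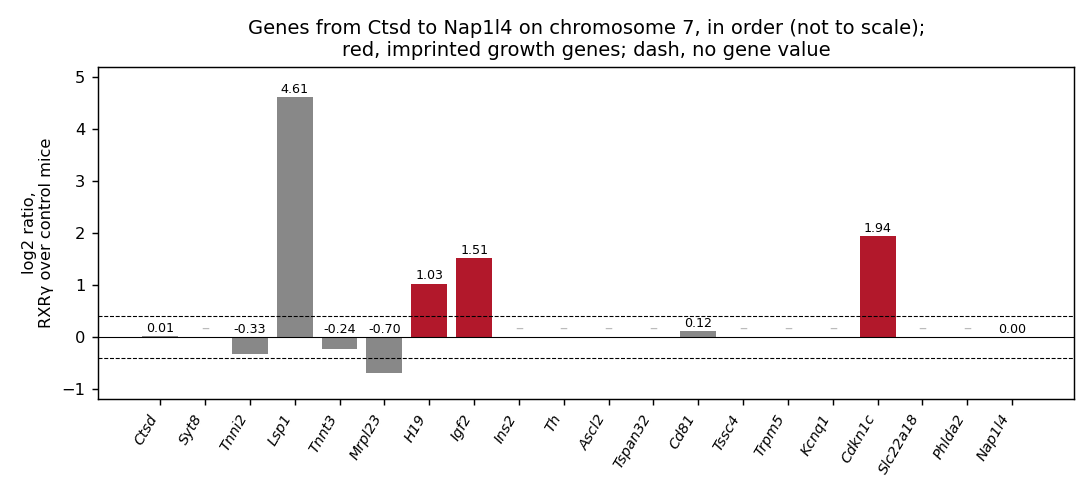
Log2 ratios (RXRγ over control mice) of the genes from Ctsd to Nap1l4 on chromosome 7, in the order of the RefSeq annotation and not to scale, 1 bar per gene with its value. Red bars are H19, Igf2 and Cdkn1c, grey bars other genes, dashes genes without a gene value, and dashed lines mark 0.4 in either direction; besides the red bars only Lsp1 (4.61) is above it and only Mrpl23 (-0.70) is below.

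Elsewhere the neighbours of the members were mixed. Lum, the gene after Dcn, encodes lumican, another proteoglycan of the same family, and was higher (1770.8 against 699.1 in control mice, log2 ratio 1.34), while Dcn itself stayed at 0.15. On the other side of Dcn, the antiproliferative gene Btg1 (log2 ratio 1.07) and the ubiquitin-conjugating enzyme gene Ube2n (0.53) were higher, and Socs2, an inhibitor of growth hormone signalling, was lower (153.0 against 353.0, log2 ratio -1.19), as was Mrpl42 (-0.47). Near Plagl1, the utrophin gene Utrn was higher (354.1 against 171.3, log2 ratio 1.05), and near Gnas, the aminopeptidase gene Npepl1 was lower (log2 ratio -0.66). None of the 6 measured neighbours of Igf2r and none of the 3 of Grb10 reached 0.4. With more than 250 on both arrays, 3 neighbours were higher and 2 were lower. The calls near the threshold depended on the scaling. Ppp3r1, a neighbour of Grb10 with a log2 ratio of 0.38, was counted as higher under quantile normalization and intensity-dependent centring, and Mrpl42 was not lower under the latter.

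RXR binds DNA with its partner receptors at repeats of the motif AGGTCA. The RefSeq table of promoters holds 13 entries for 6 of the members, with none for H19, Cdkn1c and Dcn. In the 250 bases before the start, AGGTCA or its reverse complement TGACCT occurred in 2 of the 13, or 15.4%, against 14.0% of all 32851 promoters in the table. They were the first promoter of Igf2 counted from the 5′ end of the gene and the promoter of Igf2r. Promoters are counted from there. Direct repeats of the motif spaced by 1 or by 4 bases occurred in none of the 13 and in 0.0335% and 0.0152% of all promoters. Only exact repeats were counted, and they are so rare that their absence from 13 windows is not informative. The difference between these shares was not tested, and the 13 windows are not independent, since some windows of Gnas overlap. The motif occurred at a higher member and at a member that stayed within 0.4. The median GC content of the 13 was 63.2%, with a median of 19 CpG dinucleotides, against 52.4% and 6 over all promoters. A match is a description of the letters and does not show binding.
The windows below are shown because they allow the promoters of members that were higher (Igf2, Peg3, Plagl1) to be compared with that of Igf2r, which was not. Of the 4 promoters of Igf2, promoter 1 is shown for its motif and promoter 4 as the last one. Each runs 5′ to 3′ on the strand of the gene and ends 1 base before the start (GRCm38.p6), and capitals mark AGGTCA or TGACCT.
Igf2, promoter 1, chr7:142666817-142667066, minus strand: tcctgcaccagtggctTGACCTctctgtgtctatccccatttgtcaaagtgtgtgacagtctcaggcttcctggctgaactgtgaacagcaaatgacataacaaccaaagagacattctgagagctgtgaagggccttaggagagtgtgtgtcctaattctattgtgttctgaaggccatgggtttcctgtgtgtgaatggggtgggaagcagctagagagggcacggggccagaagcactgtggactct
Igf2, promoter 4, chr7:142657497-142657746, minus strand: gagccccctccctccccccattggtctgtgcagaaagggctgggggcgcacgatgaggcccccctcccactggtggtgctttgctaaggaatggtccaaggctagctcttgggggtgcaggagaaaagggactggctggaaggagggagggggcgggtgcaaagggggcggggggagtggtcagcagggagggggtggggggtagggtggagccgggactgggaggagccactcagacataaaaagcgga
Peg3, chr7:6730420-6730669, minus strand: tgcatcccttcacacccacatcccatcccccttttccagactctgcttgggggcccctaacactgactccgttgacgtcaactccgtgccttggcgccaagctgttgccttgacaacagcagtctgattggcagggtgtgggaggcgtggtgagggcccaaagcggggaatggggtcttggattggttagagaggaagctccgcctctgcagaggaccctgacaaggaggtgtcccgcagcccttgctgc
Plagl1, chr10:13090582-13090831, plus strand: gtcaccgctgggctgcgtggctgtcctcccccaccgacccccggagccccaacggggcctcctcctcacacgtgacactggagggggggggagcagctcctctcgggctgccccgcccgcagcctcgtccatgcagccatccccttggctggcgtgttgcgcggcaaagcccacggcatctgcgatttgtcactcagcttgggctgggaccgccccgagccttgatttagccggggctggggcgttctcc
Igf2r, chr17:12769707-12769956, minus strand: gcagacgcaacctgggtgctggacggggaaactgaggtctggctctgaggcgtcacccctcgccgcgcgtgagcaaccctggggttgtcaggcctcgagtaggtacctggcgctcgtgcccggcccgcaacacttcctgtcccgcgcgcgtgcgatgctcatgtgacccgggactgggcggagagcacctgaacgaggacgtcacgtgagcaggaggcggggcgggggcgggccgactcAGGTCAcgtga
The windows of Igf2 promoters 1, 2, 3 and 4 hold 1, 10, 22 and 6 CpG dinucleotides. That of Peg3 holds 8, that of Plagl1 19 and that of Igf2r 27. Among the other members within 0.4, whose windows are not shown, Grb10 promoters 1 and 2 hold 40 and 8. Gnas promoters 1, 2, 3 and 4 hold 14, 21, 22 and 29. The counts of higher members and of members within 0.4 therefore overlap. Whether the probe sets of Igf2 tell its promoters apart was not examined.

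Among the imprinted genes of the Dlk1-Dio3 locus, Meg3, Rian and Mirg were measured. All were higher, with log2 ratios above those of the members described here. Their mean signals were 190.0, 51.4 and 14.2 in control mice and 4570, 1527 and 919.5 in RXRγ mice, and Dlk1 had 27.7 and 180.5. Rian and Mirg, under 150 in control mice, were at least 10.2-fold and 6.13-fold higher. The median log2 ratio of the measured genes of the locus was 4.92, and 3.34 with signals under 150 set to 150. All had a mean control signal under 250, and with more than 250 on both arrays 1 gene of the locus was higher. Of 56 other imprinted genes listed, 51 had a probe set named for them alone and 6 were measured. The amino acid transporter gene Slc38a4 was higher (742.1 against 529.4 in control mice, log2 ratio 0.49), and the remaining 5 stayed within 0.4. They were Commd1 (log2 ratio 0.21), Cd81 (0.12), Nap1l4 (0.00), the ubiquitin ligase gene Ube3a (-0.29) and Pon2 (-0.33). The median of the list was 0.06. Among those below 250, the values were mixed at the brightest probe set. Mest (42.4 for control and 154.3 for RXRγ mice), Ndn (187.0 and 246.2) and Zdbf2 (38.4 and 107.3) had more signal in RXRγ mice, Asb4 (151.9 and 55.2) and Klf14 (59.1 and 24.9) had less, and Usp29 (28.7 and 27.7), Magel2 (16.1 and 13.7) and Rasgrf1 (36.9 and 35) were close to even. These signals were too low for a call.

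**Figure D4:**
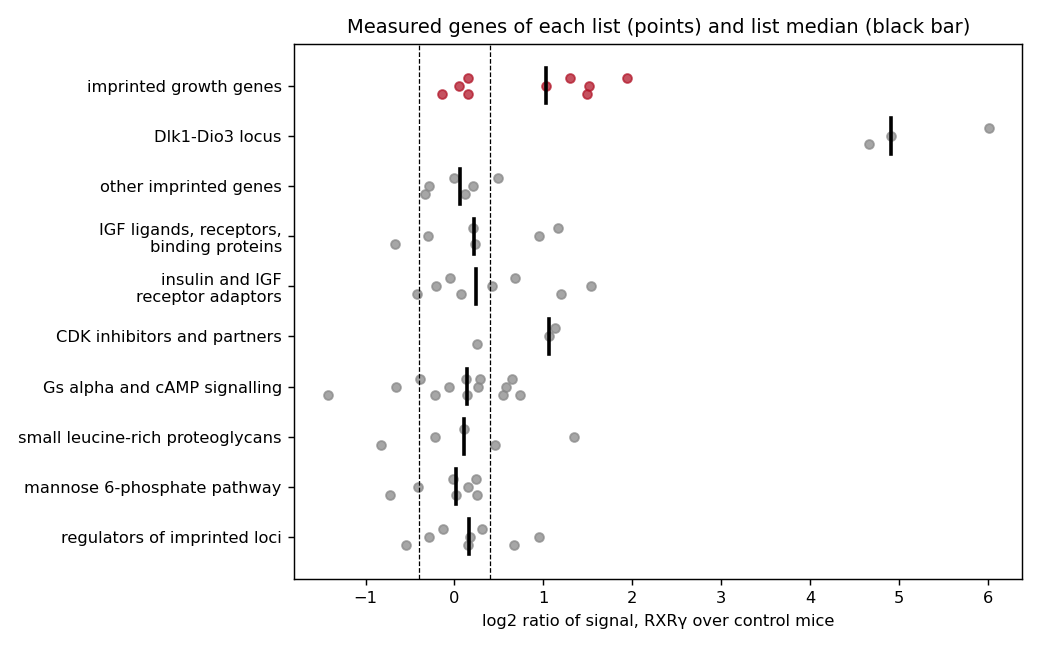
Measured genes of 10 lists by their log2 ratio (RXRγ over control mice), each gene a point whose height within its row has no meaning. Black bars show the median of each list, dashed lines a log2 ratio of 0.4 either way. The medians are 1.03 for the imprinted growth genes (red), 4.92 for the Dlk1-Dio3 locus and 0.06 for the other imprinted genes. With signals under 150 set to 150, the median of the Dlk1-Dio3 locus is 3.34.

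The genes with which the members act went both ways. Of 13 genes of IGF ligands, receptors and binding proteins, 6 were measured, of which 2 were higher and 1 was lower (median log2 ratio 0.22). Igf1, the postnatal counterpart of Igf2, reached 931.6 against 413.6 in control mice (log2 ratio 1.16), and Igfbp4, which holds IGFs outside the cell, had 688.2 against 363.1 (0.95). Igfbp5, the binding protein most linked to muscle, was lower (897.5 against 1407.7, log2 ratio -0.67). The insulin receptor gene Insr had a log2 ratio of -0.29, and Igf1r, the receptor through which IGF2 acts on growth, did not reach 250 (154.6 for control and 167.5 for RXRγ mice).

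Of 19 receptor adaptors, the class of Grb10, 8 were measured, 4 were higher and 1 was lower (median 0.25). Grb14, the closest relative of Grb10 that was measured, was higher (426.9 against 185.4 in control mice, 2.30-fold). Nedd4l, a ubiquitin ligase related to the Grb10 partner Nedd4, had 359.9 against 123.7 and was at least 2.40-fold higher, while Nedd4 had a log2 ratio of -0.05. Gab1 (0.69) and the phosphatase gene Ptpn11 (0.42) were the other higher genes. Irs1 was lower by a small margin (log2 ratio -0.42), which was lost under quantile normalization and intensity-dependent centring. Grb14, Nedd4l and Gab1 had control signals under 250 and entered through the array of RXRγ mice. With more than 250 on both arrays 1 adaptor was higher, and with a mean above 250 it was 2.

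Beside Cdkn1c, 14 cell cycle genes were listed and 3 were measured. The inhibitors Cdkn2c (302.0 against 144.2 in control mice) and Cdkn2d (328.6 against 149.9) exceeded control mice by at least 2.01-fold and 2.19-fold, and Cdkn1b, the relative of Cdkn1c, had a log2 ratio of 0.26. All of the cyclins and cyclin-dependent kinases listed were at or under 250. Both higher inhibitors entered only through the array of RXRγ mice, as Cdkn1c did.

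Of 32 genes of cAMP signalling, the pathway of Gnas, 13 were measured, 4 were higher and 2 were lower (median 0.14). The catalytic subunits of protein kinase A, Prkaca (1022.0 against 601.7 in control mice, log2 ratio 0.74) and Prkacb (0.55), the G protein subunit gene Gnb2 (0.65) and the anchoring protein gene Akap6 (0.58) were higher. The cAMP phosphodiesterase genes Pde4b (182.9 against 490.9, log2 ratio -1.43) and Pde4d (-0.66) were lower. When both arrays had to exceed 250, Prkacb (244.6 in control mice) and Pde4b fell out. That left 3 higher genes and 1 lower gene. Adcy9, an adenylyl cyclase gene, had a log2 ratio of -0.39, just inside the threshold.

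Of 9 small leucine-rich proteoglycans besides Dcn, 5 were measured, with Lum and Bgn higher (1.34 and 0.45) and Fmod, fibromodulin, lower (473.6 against 812.2, log2 ratio -0.83). The 3 probe sets of Bgn were uneven, with log2 ratios from 0.12 to 0.98, and with the brightest one alone Bgn was not higher. Of 13 genes of the mannose 6-phosphate pathway, the other role of Igf2r, 7 were measured, none was higher, and Gaa (-0.72) and Ctsl (-0.41) were lower, the latter only without rescaling. The second mannose 6-phosphate receptor gene, M6pr, had a log2 ratio of 0.16.

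Among 23 genes that maintain imprints or organize imprinted loci, 8 were measured. Ctcf, which encodes the insulator protein of the Igf2-H19 domain, had a log2 ratio of -0.12, and Trim28, which protects methylation at imprinted loci, had 0.15. Tet2, an enzyme of DNA demethylation, was higher (281.3 against 145.8 in control mice, at least 1.88-fold), as was the cohesin gene Smc1a (log2 ratio 0.67), and the Polycomb gene Eed was lower (-0.55). Tet2 and Smc1a also entered only through the array of RXRγ mice: 0 regulators were higher with more than 250 on both arrays and 1 with a mean above 250. The DNA methyltransferase gene Dnmt1 had 91.0 and 71.4, and Dnmt3a had 249.0 for control and 109.2 for RXRγ mice, so neither reached 250. Of 9 RNA-binding partners and regulators of H19 and Igf2, Elavl1 and Hnrnpu were measured, with log2 ratios of 0.01 and 0.09. Of 11 genes linked to the death pathway of Peg3, Mdm2 and Ctnnb1 were measured, at -0.34 and -0.19.

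Markers of other cells and of immature fibres were read beside these values, because several members are abundant in fetal muscle and in connective tissue. Of 8 markers of immature or denervated fibres, 2 were measured, and both were higher: the perinatal myosin gene Myh8 (9705 against 53.8 in control mice) and the cardiac actin gene Actc1 (log2 ratio 0.53). Myh8, under 150 in control mice, was at least 64.7-fold higher and entered only through the array of RXRγ mice. With more than 250 on both arrays, 1 marker of this list was higher, Actc1. The signals summed over all probe sets of this list were 6481 for control and 19246 for RXRγ mice. Most of both sums came from Myh8 and Actc1 (5982 for control and 8640 for RXRγ mice). Among the dim markers of the list, Myog had 75.4 for control and 185.9 for RXRγ mice, and the embryonic myosin gene Myh3 had 42.7 and 112.3. Chrna1 had 95.9 and 147.6, Ncam1 23.6 and 86.2 and Runx1 20.5 and 54.2, and Chrng was near 0 (2.5 and 10.2). Every marker of this list thus had more signal in RXRγ mice at its brightest probe set, but the dim signals were too low for a call. None of 8 markers of satellite cells and myoblasts reached 250, and they went both ways, with Pax7 at 15.9 and 50.3, Myf5 at 28.8 and 52.9, Myod1 at 175.2 and 156.3 and Cdh15 at 124.1 and 94.7. Their summed signal was 677.7 and 802.6. Of 7 measured fibroblast markers, Lum and Pi16 were higher (1.34 and 0.42, Pi16 from a control signal under 250) and Pdgfra, Col1a1 and Col3a1 had log2 ratios of 0.24, -0.22 and 0.19. The summed signal of fibroblast markers was 8810 and 10017. Of 8 muscle fibre markers, 3 were lower (Myh2, Ckm and Myh4, the last not under quantile normalization or intensity-dependent centring), and the summed signals were 109621 and 91135. With the brightest probe set alone only Myh2 of the 8 was lower, and the probe sets of Ckm were uneven, with log2 ratios of -0.11 at the brighter and -1.39 at the dimmer one. No adipocyte, macrophage, tendon or nerve marker that was measured was higher or lower, and no endothelial marker reached 250. The part of these cells and fibres in the rise of the 5 members was not tested.

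The likeness of other genes to the members can be described only by the signals on these arrays. The gene nearest to Peg3 in log2 signal on both arrays was the stearoyl-CoA desaturase gene Scd2 (226.9 for control and 621.2 for RXRγ mice, distance 0.065), that nearest to Igf2 was Cyb5r3 (188.7 and 531.4, distance 0.094), and that nearest to Cdkn1c was Resf1 (103.9 and 345.0, distance 0.16). With 2 arrays and different probe sets, such a distance does not establish a shared pattern.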

How the data were processed

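RNA of skeletal muscle, pooled within each genotype, was measured on 1 Affymetrix MG430 array per genotype. The deposited values are linear intensity signals that the authors made with the Affymetrix software from perfectly matched and mismatched oligonucleotides, already scaled (trimmed mean of 100.0 without 2% of probe sets at each end). Such scaling makes ratios relative to the bulk of probe sets, and signals near 0 carry large errors. The algorithm's settings are not given in the sources used here, and detection calls were not used here.

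Of 45101 probe sets, 34958 have 1 gene in the platform annotation, 932 several and 9211 none. Only the first kind, updated to RefSeq symbols, and the probe set of H19 were used. Log2 ratios were computed without a pseudocount and averaged over a gene's probe sets above 250 on the brighter array. Genes named are all members, and from each list those past 0.4, up to 4 by size, then bright ones that were not. Some further genes, the dim ones among them, were named after their values were seen. The members, lists and alternatives were chosen with earlier results of these data known. The 5 higher members are also on the study's list of increased genes, which comes from the same arrays. The steps were tested on simulated data with known changes. Python 3.11.15, pandas 2.3.3, numpy 2.4.6, statsmodels 0.14.6 (lowess, span 0.4) and matplotlib 3.10.9 were used.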

Additional observations from a re-analysis of the deposited data

How the results depend on the processing

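Each of 13 alternatives changed 1 choice. The count of 5 higher members was the same under the 3 other scalings, 32 added to every signal, dim signals raised to 150, a filter at 150 on the brighter array, the brightest probe set and a threshold of 1. It was 4 of 8 with a mean signal above 250 (against 15.5% of all genes). Without probe sets ending in _x_at or _s_at, which removed Plagl1 and Gnas, it was 4 of 7 (against 16.8%). Without a filter it was 4 of 9 (against 28.6%), but these were H19, Cdkn1c, Peg3 and Gnas. Igf2 and Plagl1 then had probe sets beyond 0.4 in both directions. The count was 3 with more than 500 on the brighter array (against 16.5% of all genes) and 2 with more than 250 on both (against 12.2%). Fewer members were measured there (6 in both cases). The count of lower members was 0 except without a filter, where it was 1 (Dcn). Over all genes, 637 were higher and 760 lower. The numbers were 983 and 1028 above 150 on the brighter array, 341 and 438 above 500, 372 and 501 above 250 on both, 5209 and 4114 without a filter, and 192 and 155 at a threshold of 1. The log2 ratios of H19, Cdkn1c and Peg3 ranged from 1.02 to 1.11, 1.35 to 1.96 and 1.07 to 1.61. Those of Igf2 and Plagl1 reached down to 0.32 and 0.42 without a filter. No paired analysis was possible because each genotype has 1 array. Beyond the fixed scaling, the limits are the single array per genotype and the dim signal of Igf2, Cdkn1c and Plagl1 in control mice.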
